A study of Mus musculus with 4 samples.

Results

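RNA recovered with FLAG-tagged mutant Dis3l2 was compared with RNA recovered from mock-transfected cells by the same anti-FLAG M2 affinity gel. The comparison set 1 mutant IP (RNA immunoprecipitation) library against 1 mock IP library, out of 4 libraries in the series. The other two were inputs from the same conditions, selected against ribosomal RNA with Ribominus. All libraries came from C57BL/6 mouse embryonic stem cells at passages 25 to 30, adapted to gelatin without feeder cells and grown with LIF and serum. The mutant groups were transfected with FLAG-mutant Dis3l2 and the mock groups carried no tagged protein, and the labels do not say which residue was changed or whether the cells' own Dis3l2 was intact. Features were kept when they had at least 100 reads summed over both IP libraries. This left 1005 of 6311 rows of a noncoding RNA table and 4472 of 16470 rows of an mRNA table. At least 1 read in either IP was found for 5099 noncoding rows and 14732 rows of the mRNA table.

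Dis3l2 is a cytoplasmic exoribonuclease that degrades RNA from the 3′ end and prefers RNAs to which terminal uridylyltransferases such as Zcchc11 (Tut4) and Zcchc6 (Tut7) have added a uridine tail. In embryonic stem cells it is best known for degrading the uridylated precursor of let-7, whose tailing is directed by Lin28a. A nuclease that cannot cut can stay on RNAs it would otherwise remove, which is why catalytic mutants are used as traps; the labels do not say whether this mutant is of that kind. RNAs of particles such as the signal recognition particle, RNase P, RNase MRP and the spliceosome are short, structured and noncoding, and their 3′ ends are trimmed during maturation.

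Sequences are shown first for 2 predicted RNAs whose names say nothing of their kind and for the miRNAs of the lowest noncoding row. They come from RefSeq tables of build GRCm38.p6, which hold windows from 250 bases before to 50 bases after an annotated start. 2900060B14Rik was among the highest rows of both tables, with 0 mock reads. It lies within Clasp1 in RefSeq, and its window is chr1:118459216-118459515 on the minus strand. Capitals mark the transcribed bases.
2900060B14Rik: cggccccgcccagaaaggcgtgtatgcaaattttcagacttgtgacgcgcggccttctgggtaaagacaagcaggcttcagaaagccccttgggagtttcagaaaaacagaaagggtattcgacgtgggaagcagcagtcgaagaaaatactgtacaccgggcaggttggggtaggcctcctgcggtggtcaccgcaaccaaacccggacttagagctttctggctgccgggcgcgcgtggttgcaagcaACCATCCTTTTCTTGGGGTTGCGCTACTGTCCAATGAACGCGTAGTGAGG
As background, human CLASP1 hosts in an intron the gene of U4atac, an snRNA of the minor spliceosome. No U4atac sequence was at hand, so identity with it was not tested. The window also held the octamer ATGCAAAT, a motif of snRNA promoters, starting 227 bases before the start. ATGCAAAT was found on either strand in 570 of 32851 windows of that length, 1.74% of them. Its letters were read from the window of 2900060B14Rik, so their presence there was fixed in advance and tests nothing.

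Gm26232, which RefSeq classes as a lncRNA, is shown because its counts tracked those of U1 snRNA (below). Of its windows, that at chr3:96450389-96450688 on the plus strand was chosen because it alone holds ATACTTACCTG, marked in capitals. These are the letters with which U1 begins and which pair with 5′ splice sites. They start 193 bases before the annotated start of this window, outside the transcript that begins there.
Gm26232: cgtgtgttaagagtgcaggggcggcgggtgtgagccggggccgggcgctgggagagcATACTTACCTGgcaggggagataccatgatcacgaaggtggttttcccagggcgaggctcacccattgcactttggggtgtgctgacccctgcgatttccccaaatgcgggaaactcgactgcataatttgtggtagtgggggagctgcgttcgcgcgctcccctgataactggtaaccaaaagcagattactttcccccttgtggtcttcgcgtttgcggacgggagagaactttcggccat
ATACTTACCTG was found on either strand in 3 of 32851 windows, which belong to Gm26232, Gm39061 and Ntmt1, or 0.00913% of them. The letters were read from the window of Gm26232, so their presence there was fixed in advance and tests nothing. Of the 115 noncoding rows that were at least 4-fold higher and the 2 that were lower, 4 had any window around an annotated start, with or without these letters. No sequence of 7SL, RNase P, MRP, U1, U2 or 5S RNA was at hand.

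The third set belongs to Mir17hg, the host transcript of the miR-17-92 cluster and the noncoding row with the lowest ratio. Capitals mark the seed, bases 2 to 8, which pairs with targets.
mmu-miR-17-5p: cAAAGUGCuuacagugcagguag
mmu-miR-20a-5p: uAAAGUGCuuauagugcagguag
mmu-miR-18a-5p: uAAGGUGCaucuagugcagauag
mmu-miR-19a-3p: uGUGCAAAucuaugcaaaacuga
mmu-miR-19b-3p: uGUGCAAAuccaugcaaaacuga
mmu-miR-92a-3p: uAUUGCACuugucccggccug
miR-17-5p and miR-20a-5p share the seed AAAGUGC, and miR-19a-3p and miR-19b-3p share GUGCAAA. How far the libraries hold mature miRNAs was not tested, and the rows of the hairpins Mir17 and Mir18 held 0 and 0 reads of the mutant IP and 2 and 0 of the mock IP.

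Reads of the mutant IP and mock IP are called mutant reads and mock reads below. Each ratio is the deposited mutant IP value over the deposited mock IP value, that is reads divided by 2.7 over reads divided by 2.5. Its interval is the exact 95% interval from the reads. There was 1 library per group, so no difference has a replicate check and no p-value is given. The intervals compare the 2 libraries, not the conditions, and cover counting error only. A row is called higher or lower when the deposited values were at least 4-fold apart. Where the mock IP had 0 reads, the ratio is a lower bound against a floor of 3 reads in that library, not the limit of an interval. The lower ends of the exact intervals were smaller than these bounds. They were 50.5 for 2900060B14Rik among noncoding rows, 34.9 for Snord118 and 25.9 for Vps33a. The noncoding table held 3183346 mutant reads and 2157604 mock reads, and the mRNA table held 2275647 and 1860030. All 10 embryonic stem cell markers listed passed the read minimum, with 3846 mutant reads and 2650 mock reads in sum. Feeder fibroblast markers summed to 278 and 150 reads, with 1 of 7 rows at the minimum. Trophectoderm markers summed to 104 and 74, ectoderm to 80 and 75, mesoderm to 30 and 20 and endoderm to 20 and 26, with Cdx2 and Elf5 at 0 in both IPs. In such bulk material a change in the number of cells of a type and in RNA per cell cannot be told apart, and the part of other cell types in the results was not tested.

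Among noncoding RNAs, the RNAs of the signal recognition particle, RNase P, RNase MRP, U1, U2 and 5S ribosomal RNA were higher in the mutant IP, together with many predicted genes. In all, 115 of 1005 rows (11.4%) were at least 4-fold higher and 2 (0.199%) at least 4-fold lower. The 115 became 66 with libraries centred on the median and 67 with equal totals. The median ratio over all rows was 1.37 (log2 0.45), and 83.3% of rows lay above a log2 ratio of 0. This shift depends on the divisors of the 2 libraries: centring on the median would lower every log2 ratio by 0.45, and equal totals would do so by 0.45 as well. Class medians are therefore also given as their distance from 0.45. The higher rows were those of 7SL (3), RNase P and MRP (3), U1 (4), U2 (1), U8 (1), vault RNA (1), 5S rRNA (38), predicted Gm genes (54), clone-named RNAs (8) and Rik cDNAs (2). 44 rows were at least 8-fold and 22 at least 16-fold higher, and 86 had an interval wholly above 4-fold. 0 rows had an interval wholly past 4-fold lower. At 2-fold, 204 rows (20.3%) were higher and 4 (0.398%) lower.

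**Figure D1:**
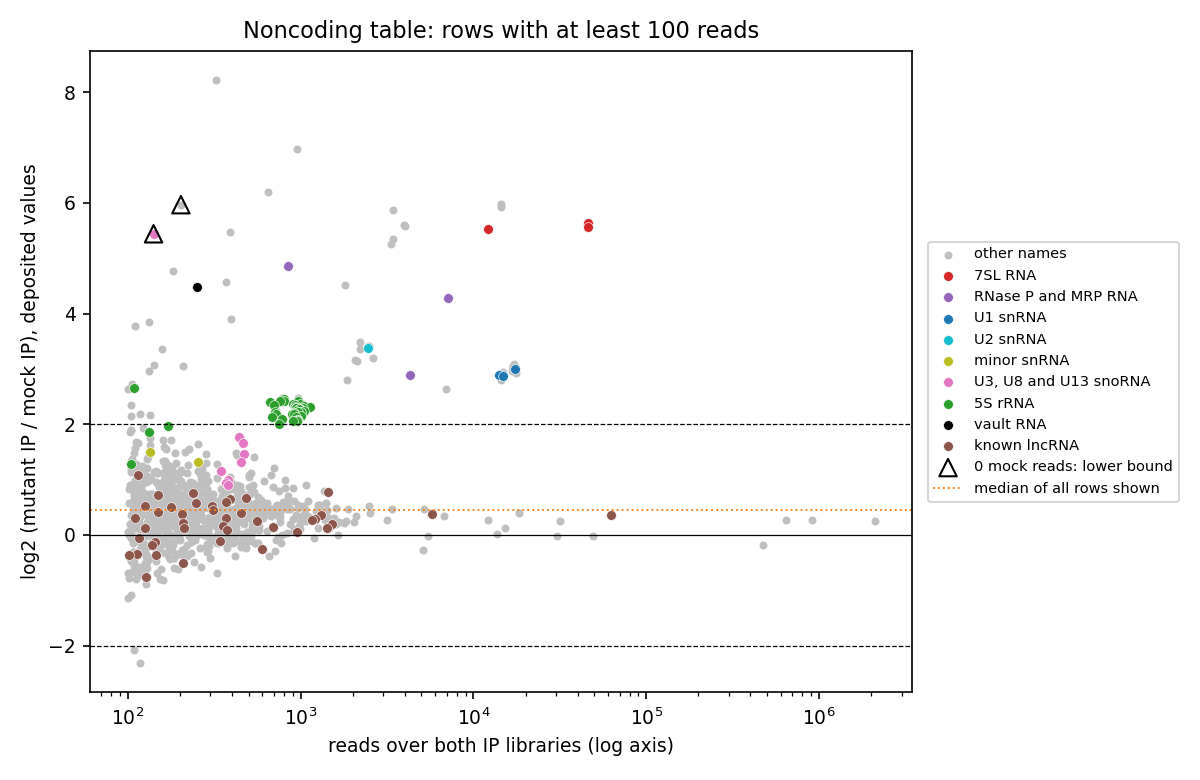
Reads over both IP libraries (log axis) against the log2 ratio of mutant IP to mock IP for the 1005 noncoding rows, coloured by RNA class. Dashed lines mark 4-fold, the dotted line the median of 0.45, and triangles the 2 rows with 0 mock reads, drawn at their lower bound. The 7SL RNAs lie above 5.5, U1 near 3 and the 5S copies in a cluster a little above 2.

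7SL RNA, the scaffold of the signal recognition particle that brings secretory proteins to the endoplasmic reticulum, gave the higher rows with the most reads. Rn7s1 had 45304 mutant reads and 890 mock reads, Rn7s2 had 44921 and 840, and Rn7s6 had 11814 and 237. Together they took 3.21% of the noncoding reads of the mutant IP (Wilson 95% interval 3.19 to 3.22) and 0.0912% of those of the mock IP (0.0872 to 0.0953). Rn7s1 and Rn7s2 had counts within 20% of each other in all 4 libraries, so the sum may count some reads more than once. The inputs were alike, at 1.40% in the mutant and 1.46% in the mock. By these shares the mutant IP lay above both inputs and the mock IP below both. The totals behind the shares include rows like U1 that may share reads (below). The class median was 5.56 on the log2 scale, 5.10 above that of all rows.

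RNase MRP RNA, which takes part in cutting ribosomal RNA precursors, and RNase P RNA, which cuts the 5′ leader from tRNA precursors, were both higher. Rmrp had 6838 mutant reads against 325, and the RNase P RNA Rpph1 had 3812 against 475. The RNase P-like gene Rprl3 had 815 against 26, which gave 29.0 (19.7 to 44.7). The mRNA table listed the same 3 RNAs, with ratios of 19.4 (17.4 to 21.8) for Rmrp, 7.60 (6.91 to 8.38) for Rpph1 and 19 (14 to 26.3) for Rprl3. Rprl2 did not match in this way. Its row in the mRNA table had 779 mutant reads and 86 mock reads, which gave 8.39 (6.71 to 10.6), but its row in the noncoding table had 8 and 18. Rprl1 had 285 and 59 in the mRNA table and 1 and 0 in the noncoding table. The rows of the 2 tables are different transcript models, and the reason for the difference was not tested.

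Among spliceosomal RNAs, U1 and U2 of the major spliceosome were higher, and U11 and U12 of the minor spliceosome did not pass 4-fold. Rnu1a1, a U1 gene, had 15488 mutant reads and 1791 mock reads, and its ratio was 8.01 (7.62 to 8.41). The U1 class took 1.71% of the mutant noncoding IP reads and 0.309% of the mock ones, far below its 9.91% and 9.85% in the mutant and mock inputs. Its 4 rows had counts close to each other, so the sum may count reads more than once. It leaves out 17 Gm rows with counts like those of Rnu1a1 (below). U2, in the row Rnu2-10, had 2258 and 202 reads, or 0.0709% and 0.00936%, against 0.0461% and 0.0521% in the inputs. By these totals, the mutant IP held a smaller share of U1 than the inputs, and a larger share of 7SL and U2. The totals include 20 rows with counts like those of Rnu1a1 (below), which may hold the same reads. Counting U1 once would raise the shares of other RNAs more in the inputs than in the IPs. Whether the order for 7SL and U2 would then hold was not tested. Inputs were selected against ribosomal RNA, so shares of IP and input have different bases. Rnu12 had 187 and 69 reads and Rnu11 101 and 33, and their median log2 ratio of 1.42 lay 0.96 above all rows. The mutant and mock inputs also differed for Rnu12, with 476 and 265 reads, an input ratio of 2.49. U4, U5 and U6 RNAs had 23 and 8 reads over 2 rows, and no row of theirs reached 100.

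Many of the higher rows without a descriptive name were snRNAs by RefSeq's classes or tracked U1 or U2 in their counts. RefSeq classed 32 of the Gm rows with at least 100 reads as snRNA, and 29 of these were higher, beside 7 of 7 classed as rRNA, 4 of 6 as pseudogene and 4 of 161 as lncRNA. Of 379 Gm rows that RefSeq did not match, 10 were higher. Beside Rnu1a1, 20 rows had counts within 20% of its own in all 4 libraries, 17 of them Gm rows, and their ratios ran from 7.01 to 8.47. One was Gm26232, with 12559 and 1567 reads and the window printed above. Gm23849, Gm23971 and Gm24950 stood in the same relation to Rnu2-10, with ratios from 9.19 to 10.7. Rows this alike may share reads, since no source used here says how reads with several alignments were treated, and they are not separate observations.

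**Figure D2:**
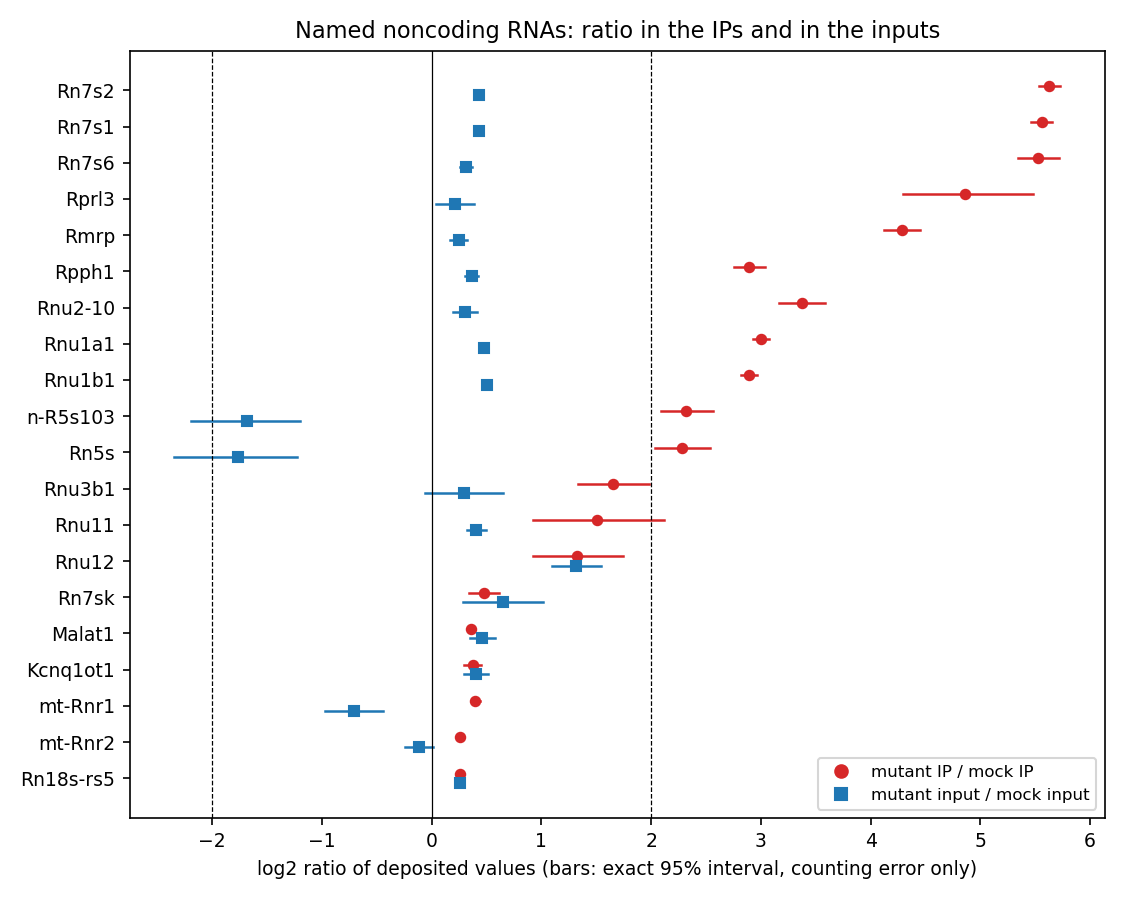
Log2 ratio of mutant to mock in the IPs (red circles) and in the inputs (blue squares) for 20 noncoding RNAs, with exact 95% intervals that cover counting error only; a symbol with several rows is shown by the row with most reads. The 7SL, RNase P, MRP, U1 and U2 RNAs are past 4-fold (dashed) in the IPs and below 0.5 or near it in the inputs, and the 5S rows n-R5s103 and Rn5s are the ones with an IP ratio above 0 and an input ratio below -1.

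The 5S ribosomal RNA, which joins the large ribosomal subunit, was higher in a narrower way. 38 of its 41 rows with at least 100 reads passed 4-fold upwards and 0 downwards. Over all noncoding rows, these included, the shares were 11.4% and 0.199%. In sum the 69 rows held 29064 mutant reads and 5738 mock reads. Copies with like counts may share reads, so sums and shares over 5S rows may count some reads more than once. The class median of 2.23 lay 1.78 above all rows, and it fell below 4-fold with libraries centred or brought to equal totals. n-R5s103, the row with most reads, had 955 and 177, and 11 other rows had counts within 20% of it in all libraries, with ratios from 4.36 to 5.24. The inputs went the other way. 5S rows had 1267 reads in the mutant input and 5990 in the mock input, or 0.0461% and 0.219% of the noncoding reads. Of the 102 higher rows with at least 100 input reads, 46 were at least 2-fold lower in the mutant input and 0 at least 2-fold higher. Over all 720 noncoding rows with that many input reads the number lower was also 46. All 46 were 5S rows or Gm rows with counts like those of 5S rows, so they are not separate observations. How far the input preparation bears on 5S was not tested.

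The nucleolar RNAs divided by kind. U8 (Snord118), needed to process the RNAs of the large subunit, had 141 mutant reads and 0 mock reads, at least 43.5-fold higher. U3, which acts in processing the small-subunit RNA, was listed in 8 rows of Rnu3b1 to Rnu3b4 with at least 100 reads, and all 8 lay between 1.87-fold (1.5 to 2.33) and 3.43-fold (2.72 to 4.35). The highest, a row of Rnu3b2, had 348 and 94 reads, and the lowest, another row of the same symbol, had 254 and 126. None of 39 rows of H/ACA box snoRNAs, which guide pseudouridylation, reached 100 reads. They summed to 202 mutant reads and 113 mock reads, although the inputs held 26585 and 29545. The 9 scaRNA rows, guides for snRNA modification, likewise had 69 and 28 reads in the IPs and 4685 and 4870 in the inputs. Box C/D snoRNAs were scarce in all 4 libraries, with 116 and 106 reads in the IPs and 138 and 97 in the inputs.

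A few RNAs had reads almost only in the mutant IP, including against the inputs. 2900060B14Rik had 203 mutant IP reads and 0 in each of the other libraries of the noncoding table, at least 62.7-fold higher than the mock IP. Snord118 had 4 and 3 reads in the mutant and mock inputs. Vaultrc5, a small RNA of the vault particle, had 242 reads in the mutant IP, 10 in the mock IP, 11 in the mutant input and 6 in the mock input. Gm25202, which RefSeq classes as snRNA, had 323, 1, 7 and 2 in the same order, with an interval of the ratio from 53.3 to 11849. The Y RNAs, which bind the Ro60 protein, were below the read minimum, with 76 reads in sum in the mutant IP and 0 in the other libraries. The H/ACA RNAs thus show the reverse order of these, being frequent in both inputs and rare in both IPs.

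The remaining rows at the top were clone-named or predicted RNAs. AC157822.1 had 14248 and 208 reads, which gave 63.4 (55.3 to 73.1), and AC099934.1 had 14135 and 214. These 2 rows were within 20% of each other in all libraries. Other rows had ratios of the same order but fewer reads. AC156953.1 had 3362 and 53 reads, AC122546.1 had 3871 and 74, and Gm24105, a lncRNA in RefSeq, had 3928 and 76, with a ratio of 47.9 (38.1 to 60.9). Their ratios lay within or above those of the 3 7SL rows, which ran from 46.2 to 49.5. Rows of like names lay below that range: AC099934.2 with 3362 and 76 reads (41.0), AC157822.2 with 3272 and 79 (38.3) and Gm24514 with 384 and 8 (44.4). No source used here says what any of these RNAs are. Gm26461 had 949 mutant reads and 7 mock reads, with 1287 and 1706 in the inputs, and Gm25813 had 636 and 8. Gm24046 had 1729 and 70, which gave 22.9 (18 to 29.5).

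Known long noncoding RNAs gave no calls. Of 42 rows of known lncRNAs, 0 were higher and 0 lower, against 11.4% and 0.199% of all rows, and their log2 ratios ran from -0.75 to 1.08 around a median of 0.28. The 11.4% includes copies with like counts, such as the 38 5S rows and the 20 beside Rnu1a1, so it is no expected share for lncRNAs. Kcnq1ot1, an imprinted antisense RNA, had 3357 and 2399 reads, which gave 1.30 (1.23 to 1.37). Neat1, the scaffold of paraspeckles, had 501 and 447 in its row with most reads, which gave 1.04 (0.912 to 1.18). Meg3, another imprinted RNA, had 764 and 551 in its fullest row, which gave 1.28 (1.15 to 1.44). Transcripts named as antisense to another gene gave 0 of 26 at 4-fold in either direction. Among rows that RefSeq classes as lncRNA, 7 of 376 were higher and 1 lower. The 7 were Gm26232, 2900060B14Rik, Vaultrc5, Gm24105, Gm16070 with 87 and 13 reads, 4833417C18Rik with 88 and 16, and Gm12592 with 111 and 23. 7SK RNA, which restrains transcription elongation, had 1131 and 754 reads and a log2 ratio of 0.47, 0.02 above that of all rows.

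The 6 noncoding RNAs with the most reads were not called, whereas Rn7s1 and Rn7s2, next in reads, were the 7SL rows above. Rn18s-rs5, a ribosomal RNA row, had 1179711 mutant reads and 915200 mock reads, which gave 1.19. Gm42418 (515792 and 397551 reads) gave 1.2 and AY036118 (362754 and 277209) gave 1.21. Mir6236 had 228571 and 241290 reads, which gave 0.877 (0.872 to 0.882), and was the row with most reads whose ratio was under 1. Malat1, a nuclear lncRNA, had 36451 and 26291, and Gm26917 had 25375 and 23762, or 1.28 and 0.989. The mitochondrial ribosomal RNAs mt-Rnr1 and mt-Rnr2 gave 1.32 (1.28 to 1.36) and 1.2 (1.17 to 1.22). Of 86 rows of miRNA genes only Mir6236 and Mir6240 had at least 100 reads, and 27 had none in either IP. These 2 matter because they hold nearly all the miRNA gene reads, 235807 and 246752 in sum over the class. Their annotated mature sequences, with bases 2 to 8 in capitals, share no seed with each other or with the cluster above.
mmu-miR-6236: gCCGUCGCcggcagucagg
mmu-miR-6240: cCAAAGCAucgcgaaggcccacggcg
Mir6240 had 6817 and 5262 reads, which gave 1.2. Whether the reads of either are miRNA or come from like sequence elsewhere was not tested.

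Mir17hg was at the other end. It had 21 mutant reads and 97 mock reads, which gave 0.200 (0.119 to 0.324), and its row in the mRNA table had 3 and 17. Gm22514, which RefSeq did not match, had 22 and 86, which gave 0.237 (0.141 to 0.382). These were the only noncoding rows at least 4-fold lower, and both rest on under 30 mutant reads. The other two rows at least 2-fold lower were Gm43568 at 0.456 (0.291 to 0.702) and a row of C230062I16Rik at 0.470 (0.303 to 0.715). C230062I16Rik had 35 and 69 reads in that row and 99 and 56 in another of its transcripts, so its rows disagreed in direction. Counting for each symbol only its row with most reads, the next were Gm2093 at 0.571 (0.408 to 0.793), Gm42702 at 0.575, RP23-449M8.3 at 0.582, Platr16 at 0.594 and 2810404F17Rik at 0.609. Another miRNA host, Mir99ahg, had 256 and 177 reads in its fullest row, which gave 1.34 (1.10 to 1.63).

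Protein-coding mRNAs gave few calls, and those came from rows with few reads. Of 4472 rows of the mRNA table, 85 (1.9%) were at least 4-fold higher and 5 (0.112%) lower; at 2-fold, 717 (16%) were higher and 83 (1.86%) lower. Centring on the median turned the 4-fold counts into 43 and 13. Of its 4286 protein-coding rows 77 (1.8%) were higher and 5 (0.117%) lower, and of its 186 noncoding rows 8 (4.3%) were higher and 0 lower. Protein-coding rows had a median ratio of 1.31 (log2 0.39), which centring would remove and equal totals would lower by 0.18, and 74.8% lay above 0. Of the 85 higher rows, 76 had under 200 reads and 73 had under 30 mock reads, and their median was 132 reads against 197.5 over all. The 5 rows called higher with at least 300 reads were Rmrp, Rpph1, Rprl1, Rprl2 and Rprl3, all noncoding.

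**Figure D3:**
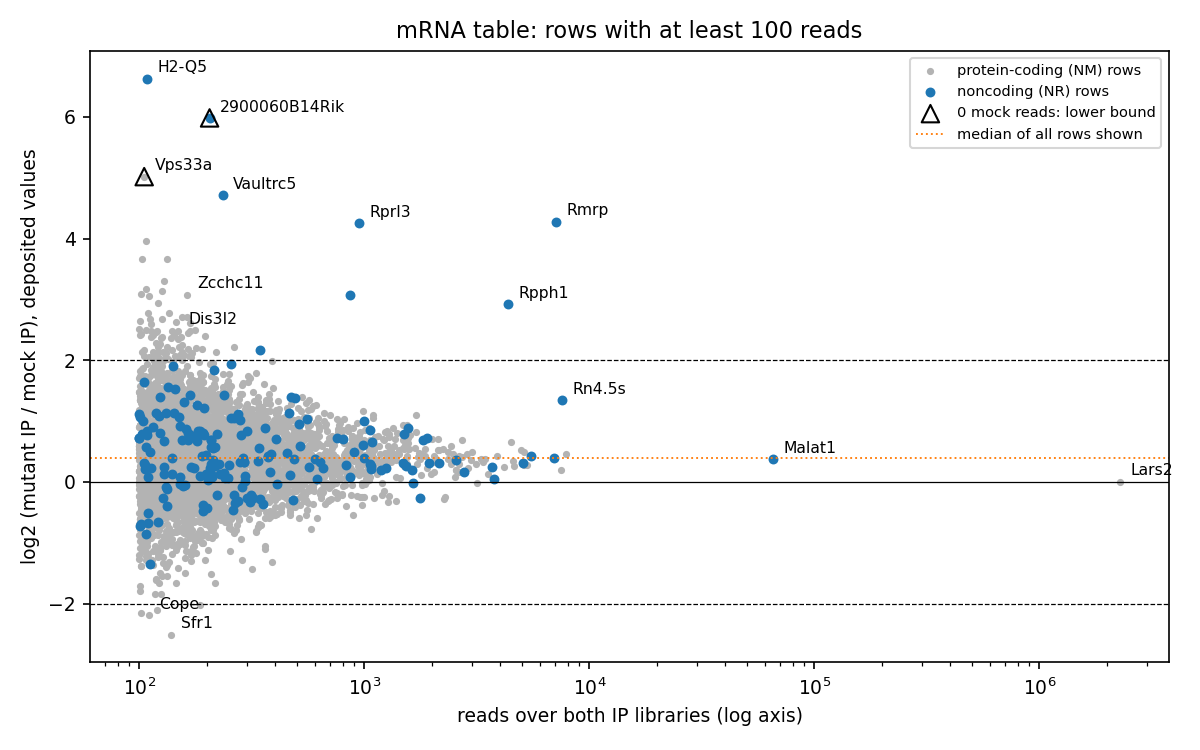
Reads over both IP libraries (log axis) against the log2 ratio of mutant IP to mock IP for the 4472 rows of the mRNA table, protein-coding in grey and noncoding in blue. Dashed lines mark 4-fold and triangles the 2 rows with 0 mock reads, at their lower bound. The rows past 4-fold at 300 reads or more are blue, and the grey rows narrow towards the median of 0.39 as reads increase.

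The spread of protein-coding ratios narrowed with reads, while the upper end of the noncoding ratios did not. With 100 to 199 reads, 75 of 2184 protein-coding rows were higher and 5 lower, and log2 ratios ran from -2.51 to 5.02. With 200 to 499 reads 2 of 1556 were higher, and with 500 to 999 reads 0 of 386. With 1000 or more, 0 of 160 passed 4-fold in either direction, and they lay between -0.33 and 1.10. In the noncoding table the counts of higher rows over the same ranges were 14 of 394, 7 of 335, 42 of 160 and 52 of 116, or 44.8% in the last. Most of the higher rows in the last 2 ranges were copies with like counts, such as those of 5S, U1 and U2. These counts are therefore not numbers of separate RNAs. Over the whole table the medians on either side of the read minimum were these: mRNA rows just under it, with 90 to 99 reads, had a median log2 ratio of 0.54 and those with 100 to 110 reads 0.39, and the noncoding values were 0.42 and 0.34. Medians of short lists moved more when the minimum was 20 reads. Those of RNase P and MRP proteins (-0.93 to 0.78) and of La and Y RNA partners (-0.26 to 0.44) changed sign, and those of replication histones (0.37 to 1.07) and miRNA genes (0.04 to 0.85) grew.

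**Figure D4:**
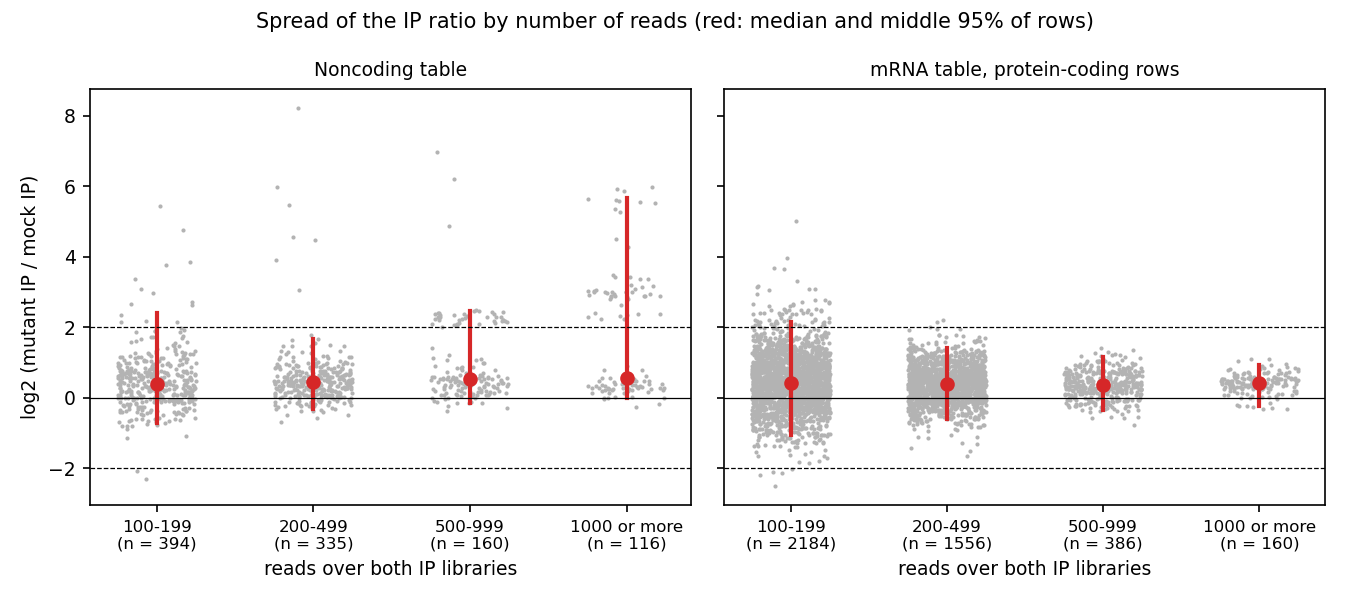
Log2 ratio of mutant IP to mock IP by the number of reads over both IPs, for noncoding rows (left) and protein-coding rows of the mRNA table (right). Grey points are rows, the red point is the median and the red bar spans the middle 95% of rows; on the right the bar shortens to 0.93 at its upper end with 1000 or more reads, and on the left it reaches 5.66.

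Dis3l2 had 127 mutant reads and 21 mock reads, which gave 5.60 (3.51 to 9.36). It checks the labels only in part, since reads of the transfected construct and of the cells' own mRNA cannot be told apart. Of 11 genes listed with Dis3l2 and RNA uridylation, 6 had at least 100 reads, and 2 of these were higher, against 1.8% of all protein-coding rows: Dis3l2 and Zcchc11, with 146 and 16 reads, which gave 8.45 (5.03 to 15.2). The other members were Lin28a with 167 and 112 reads (1.38-fold), Zcchc6 with 115 and 104 (1.02-fold), the noncanonical poly(A) polymerase Papd5 with 109 and 95 (1.06-fold), and the exosome nuclease Dis3 with 75 and 97 (0.716, 0.522 to 0.978). The median of the 6 was 0.28, which is 0.12 below all rows. The inputs were too shallow to set beside these, with 57 and 71 reads over the 11 genes.

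The highest protein-coding rows had almost no mock reads. Vps33a, a tethering factor of endosomes and lysosomes, had 105 mutant reads and 0 mock reads, at least 32.4-fold higher. Reep2, which shapes the endoplasmic reticulum, had 101 and 6, which gave 15.6 (6.92 to 43.5). Fgd5, an exchange factor for Cdc42, had 96 and 7, and the ganglioside synthase St3gal5 had 123 and 9, both 12.7-fold higher. These genes belong to no common list used here. Bfar, a regulator of apoptosis, had 117 and 11, which gave 9.85 (5.31 to 20.3). Slc35e3 had 97 and 10, and Diablo, a mitochondrial protein that blocks inhibitors of apoptosis, had 114 and 12. The lower ends of the intervals ranged from 4.68 for Slc35e3 to 6.92 for Reep2 among those with mock reads. H2-Q5, a class I histocompatibility row that is a noncoding transcript here, had 107 and 1, but its family members are near-identical and reads may be divided among them. Of the protein-coding rows, 14 had an interval wholly above 4-fold. 80 of the 85 higher rows had under 100 reads over both inputs, so their level in the inputs was not measurable at this depth.

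The 5 lower protein-coding rows were as thin. Sfr1 had 22 mutant reads and 116 mock reads, which gave 0.176 (0.106 to 0.279). Its inputs also differed, with 16 and 63 reads. Cope, a subunit of the COPI vesicle coat, had 21 and 89 (0.218, 0.129 to 0.355), and Lrrc3 had 20 and 82 (0.226, 0.131 to 0.372). 4930519G04Rik had 24 and 96, and Pdp2, which activates pyruvate dehydrogenase, had 39 and 146 (0.247, 0.169 to 0.354). None of the 5 had an interval wholly past 4-fold lower.

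For mRNAs of the proteins of these particles, 0 rows with at least 100 reads passed 4-fold; since 1.8% of all protein-coding rows were that much higher, lists this short would hold few or none at the same share. Of 9 rows for signal recognition particle proteins 3 had at least 100 reads and 0 passed 4-fold: the receptor subunit Srpr with 237 and 100 reads (2.19, 1.73 to 2.80), Srp72 with 159 and 125 (1.18, 0.926 to 1.5) and Srp68 with 80 and 50 (1.48, 1.03 to 2.15). Of RNase P and MRP proteins only Pop1 had that many, with 65 and 115, which gave 0.523 (0.380 to 0.715). Pop1 is a scaffold shared by both enzymes. Of the other 8 rows, under the minimum, Rpp40 had 58 and 18 reads, Rpp38 had 18 and 3 and Rpp14 had 12 and 0. Others went the opposite way, with 3 and 11 for Pop4, 0 and 3 for Pop7 and 8 and 10 for Rpp25l. Pop1 therefore does not stand for the list. For U1 and the Sm ring, Snrnp70 with 596 and 407 gave 1.36, Snrpa with 34 and 81 gave 0.389 (0.252 to 0.587), and Snrpn with 88 and 27 gave 3.02 (1.94 to 4.83). The 5 U2 proteins, all of the SF3 complexes, had a median log2 ratio of -0.14, which is 0.53 below all rows, from Sf3a2 at 0.691 to Sf3b1 at 1.48. The 5S-binding ribosomal proteins Rpl5 and Rpl11 gave 1.2 (1.03 to 1.39) and 1.37 (1.08 to 1.74). Rows under the minimum in these lists went both ways. Srp9 had 15 and 2 reads, Snrpf 21 and 4 and the Ro60 gene Trove2 71 and 16. Lower in the mutant IP were Snrpd1 with 2 and 31, Snrpa1 with 28 and 53, Srp54a with 26 and 44 and Mepce with 31 and 44. La (Ssb), which binds the uridine-rich 3′ ends of new polymerase III transcripts, had 36 and 65 reads, which gave 0.513 (0.331 to 0.782). The vault proteins Mvp and Tep1 gave 1.63 (1.08 to 2.5) and 1.02 (0.683 to 1.52). Among snoRNP proteins 0 of 4 passed 4-fold, and fibrillarin (Fbl) gave 2.06 (1.46 to 2.93). Of 4 RNA polymerase III subunits 0 passed, with Polr3f highest at 3.55 (2.24 to 5.82) from 92 and 24 reads.

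**Figure D5:**
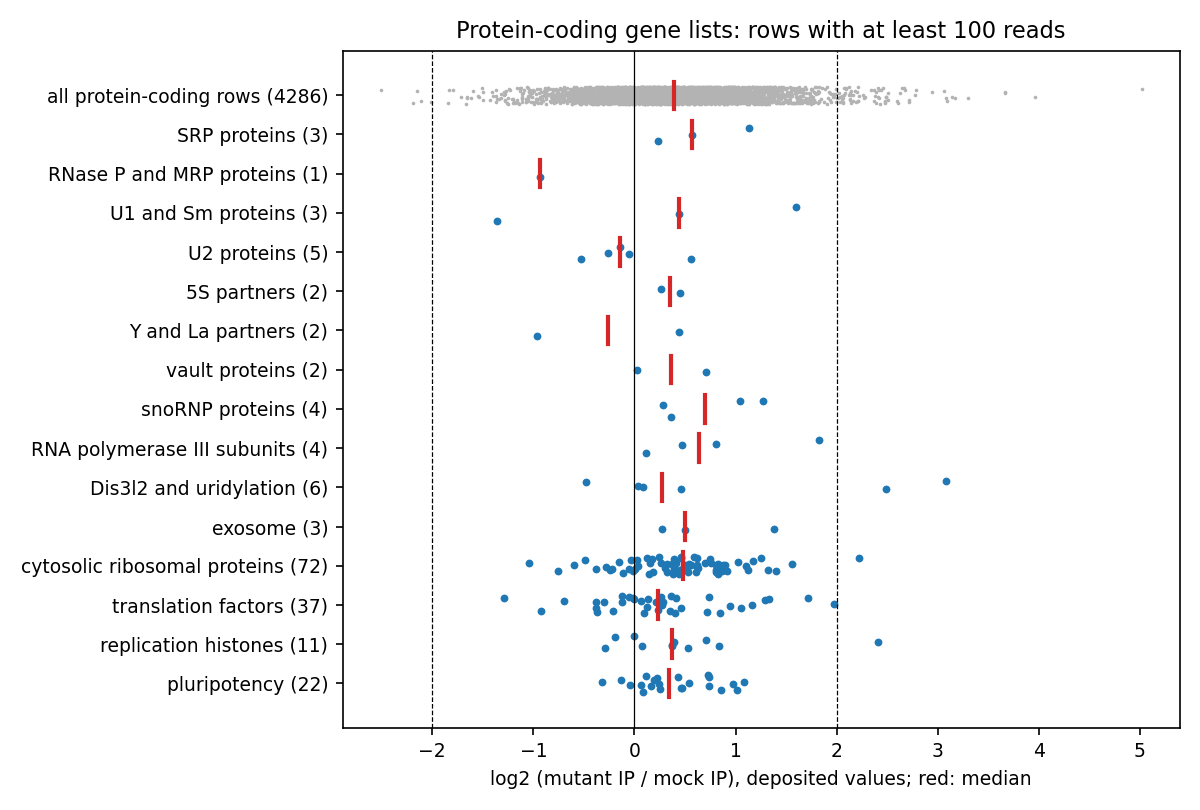
Log2 ratio of mutant IP to mock IP for rows with at least 100 reads in 15 lists of genes, with the number of rows in parentheses and a red bar at the median; the top row holds the 4286 protein-coding rows. Dashed lines mark 4-fold. Past it lie Dis3l2 and Zcchc11, 1 ribosomal protein gene and 1 histone gene, and the median of no list is past it.

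Larger groups of mRNAs had medians near that of all rows with at least 100 reads, and their calls are read against the 1.8% of protein-coding rows higher and 0.117% lower. Of 72 rows for cytosolic ribosomal proteins 1 was higher and 0 lower. Their median was 0.48 on the log2 scale, 0.09 above all rows. The higher one was Rpl17, with 101 and 20 reads, and the lowest was Rps15a, with 45 and 86 reads, which gave 0.484 (0.330 to 0.703). Of 37 translation factors 0 passed 4-fold, and their median was 0.23. The eIF2 kinase Eif2ak3 (Perk), with 149 and 35 reads, was highest at 3.94 (2.71 to 5.87), and another eIF2 kinase, Eif2ak2 (Pkr), with 52 and 118, was lowest at 0.408 (0.289 to 0.570). Of 11 replication histones, whose mRNAs end in a stem-loop that is uridylated during decay, 1 was higher: Hist2h2bb, with 86 and 15 reads, which gave 5.31 (3.05 to 9.89). Below the minimum Hist1h3f had 91 and 0 reads, Hist1h3c 38 and 0, Hist1h3b 37 and 0 and Hist3h2a 35 and 2, and with a minimum of 20 reads the histone median was 1.07 in place of 0.37. Hist1h1a had 202 and 177 (1.06) and Hist4h4 205 and 106 (1.79, 1.41 to 2.29). Ribosomal protein and histone genes have near-identical copies, so their counts are uncertain. Of 3 exosome mRNAs 0 passed 4-fold, and the nuclear exosome nuclease Exosc10 gave 2.60 (1.77 to 3.90). Of 22 pluripotency genes 0 passed it, with ratios from 0.802 for Sall4 (214 and 247 reads) to 2.12 for Utf1 (94 and 41). Sox2, a core factor of the stem cell state, had 416 and 213 reads, which gave 1.81 (1.53 to 2.14).

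Among the rows with most reads in the mRNA table, Rmrp passed 4-fold and the others did not. Lars2 had 1182576 and 1089665 reads (1.0), out of 2275647 and 1860030 in that table, so it weighs heavily on scaling to equal totals. Whether its reads come from its mRNA or from like sequence elsewhere was not tested. The chaperone Hsp90ab1 had 4145 and 3356 (1.14, 1.09 to 1.2), and Ccdc82 4676 and 3152 (1.37). Rn4.5s, a rodent small RNA that RefSeq classes as rRNA, had 5540 and 2016 reads, which gave 2.54 (2.42 to 2.68), beside an input ratio of 0.855 (0.679 to 1.07). Its ratio lay above those of Ccdc82 and Hsp90ab1, the rows next to it in reads, but below 4-fold and below that of Rmrp. Of 50 symbols with at least 100 reads in both tables, 5 were higher in both (2900060B14Rik, Rmrp, Rpph1, Rprl3 and Vaultrc5) and 0 in 1 table only. Their log2 ratios differed between tables by a median of 0.16, and 43 lay within 0.5 of each other.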

How the data were processed

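Alignment used Bowtie and mm9, per the submitters' processing notes. Versions, counting tool, strand use and multi-mapping were not given in the sources used here. Deposited by the authors were 1 noncoding and 1 mRNA table, where each value is a signal: whole reads (100% of rows, within 0.02 reads) divided by 1.8 in the mutant input, 2.7 in the mutant IP and 2.5 in each mock library. No source used here says what the divisors stand for. Reads were recovered by multiplication.

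Ratios used deposited values, without pseudocount, for rows with at least 100 IP reads. Intervals are exact conditional binomial (scipy 1.17.1) and shares have Wilson intervals. With 1 library per group no test was made. RNA classes came from names and RefSeq biotypes (508 of 1005 and 4245 of 4472 rows matched by symbol); 26 names turned into dates were restored. Per table, the rows named were the 12 highest, the 8 lowest and the 8 with most reads, with Dis3l2, members of each class and list, up to 6 by reads; list extremes and rows that a count singles out were chosen after their values were seen. Members and lists were chosen with earlier results of these data known.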

Additional observations from a re-analysis of the deposited data

How the results depend on the processing

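Counts of calls moved with the settings. With at least 20 reads 303 noncoding rows were higher and 56 lower, and 970 and 325 in the mRNA table. With at least 300 reads 0 noncoding rows were lower, and 5 mRNA rows were higher and 0 lower. Centred on the median, 66 noncoding rows were higher, and 43 mRNA rows higher and 13 lower; with equal totals 67 noncoding rows were higher. At 2-fold, 204 noncoding rows were higher and 4 lower, and 717 and 83 in the mRNA table. With a pseudocount of 5, 0 rows were lower in either table and 26 mRNA rows were higher. Counting only rows whose interval lies wholly past 4-fold, chosen after seeing the data, left 0 lower in either table and 21 mRNA rows higher. Among the highest and lowest rows, those with most reads and Dis3l2, all 32 past 4-fold stayed so under both scalings. Apart from Dis3l2 these 32 were picked as extremes, and the larger shifts were only 0.45 for noncoding and 0.39 for mRNA rows. Their staying past 4-fold was therefore fixed in advance and tests nothing. Other rows named above were not in that check. Those near 4-fold, such as n-R5s103, Rpl17 and Rprl1, fell under it with libraries centred on the median. Of 6 class medians past 4-fold, that of 5S rRNA did not stay so. No paired analysis was possible because each group has 1 library. Depth limits mRNAs most: with 100 to 199 reads the middle 95% of protein-coding rows spanned -1.07 to 2.14 on the log2 scale.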
